A study of Mus musculus with 4 samples.

Results

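Collagen genes are those whose symbol is Col, a number, the letter a and a number, such as Col1a1, where the first number is the collagen type and the second the chain. Of the 24138 rows of the deposited expression table, 44 carry such a symbol, and all 44 are described here. The table holds 1 value per gene for each of 4 livers, numbered 1 to 4 as in the sample titles. The samples are male C57BL/6J mice aged 18 weeks, all of which had been given the FAT-MASH diet and resolvin D1 (RvD1). The diet is used to bring about metabolic dysfunction-associated steatohepatitis (MASH), in which the liver accumulates fat, becomes inflamed and scars. RvD1 is a lipid mediator formed from docosahexaenoic acid. The make-up of the diet and the dose and schedule of RvD1 are not given in the sources used here. All 4 livers form 1 group, and no liver without the diet or without RvD1 was analysed here, so no effect of either can be read from the values. The results are the level of each collagen transcript and its spread between the 4 livers, and no test between groups was made. Values are in FPKM, fragments scaled for transcript length and for the total of mapped fragments, so levels can be compared between genes.

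Collagens are the structural proteins of the extracellular matrix. Each molecule is a trimer of chains wound into a triple helix, in which glycine must occupy the first place of each Gly-X-Y triplet because only glycine fits at the centre. Fibrillar collagens such as types I, III and V form the banded fibres of scar tissue, type IV forms the mesh of basement membranes, type VI forms beaded filaments around cells, and types XV and XVIII, the multiplexins, sit at basement membranes. In injured liver the fibrillar collagens are known to come mainly from hepatic stellate cells and portal fibroblasts that have become myofibroblasts, and hepatocytes are known to transcribe Col18a1.

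The repeat of glycine codons can be read in the exons of these genes. All 44 members were matched to a coding transcript of the GENCODE vM21 annotation of GRCm38 (mm10). The exons below were printed because each is 54 bases long and codes for 6 consecutive Gly-X-Y triplets, and because they come from 4 chains of fibrils and from the most abundant basement membrane chain and multiplexin in these livers. Sequences read 5′ to 3′ on the strand of the gene, and capitals mark the codon at the first place of each Gly-X-Y triplet.
Col1a1 exon 8 of 51, chr11:94939904-94939957, plus strand: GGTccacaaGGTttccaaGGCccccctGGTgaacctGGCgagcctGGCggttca
Col1a2 exon 8 of 52, chr6:4515481-4515534, plus strand: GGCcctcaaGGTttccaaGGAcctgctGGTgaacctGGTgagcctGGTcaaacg
Col3a1 exon 6 of 51, chr1:45325360-45325413, plus strand: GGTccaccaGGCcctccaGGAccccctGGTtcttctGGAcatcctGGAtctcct
Col5a1 exon 15 of 66, chr2:27965251-27965304, plus strand: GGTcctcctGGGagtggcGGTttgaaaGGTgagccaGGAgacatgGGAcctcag
Col4a1 exon 7 of 52, chr8:11245211-11245264, minus strand: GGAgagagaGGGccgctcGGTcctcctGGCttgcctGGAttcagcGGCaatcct
Col18a1 exon 27 of 41, chr10:77067379-77067432, minus strand: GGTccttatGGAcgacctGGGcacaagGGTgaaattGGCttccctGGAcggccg
In each of these exons all 6 codons at that place code for glycine, and glycine codons at the X or Y place were left in lower case. Among 627 internal coding exons of the 11 fibrillar genes, 305 (48.6%) were 54 bases long, 84 were 108 bases, 70 were 45 bases and 25 were 99 bases. A length that is a whole multiple of 9 bases, the length of 1 triplet, was found for 83.9% of them. The share was 63.8% over the 1917 internal coding exons of all 44 members, against 13.1% over 9975 other genes whose mean reached 1 FPKM. Exons of exactly 54 bases made up 24.5% in the members and 0.424% in those other genes. Outside the fibrillar class they made up 26.3% in the fibril-associated genes and 9.33% in the transmembrane genes. The share was 8.25% in the beaded filament genes, 5.19% in the multiplexins and 4.23% in the basement membrane genes. Col4a1 had 2 such exons among 50 internal coding exons and Col18a1 had 3 among 39, so the exons printed for these genes are not typical of them. The classes differed, with 70.7% multiples of 9 in the transmembrane genes, 65.5% in the anchoring fibril gene and 55.1% in the fibril-associated genes. It was 54.4% in the beaded filament genes, 47.2% in the basement membrane genes, 37.7% in the multiplexins and 30.2% in the 2 genes of no other class.

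**Figure D1:**
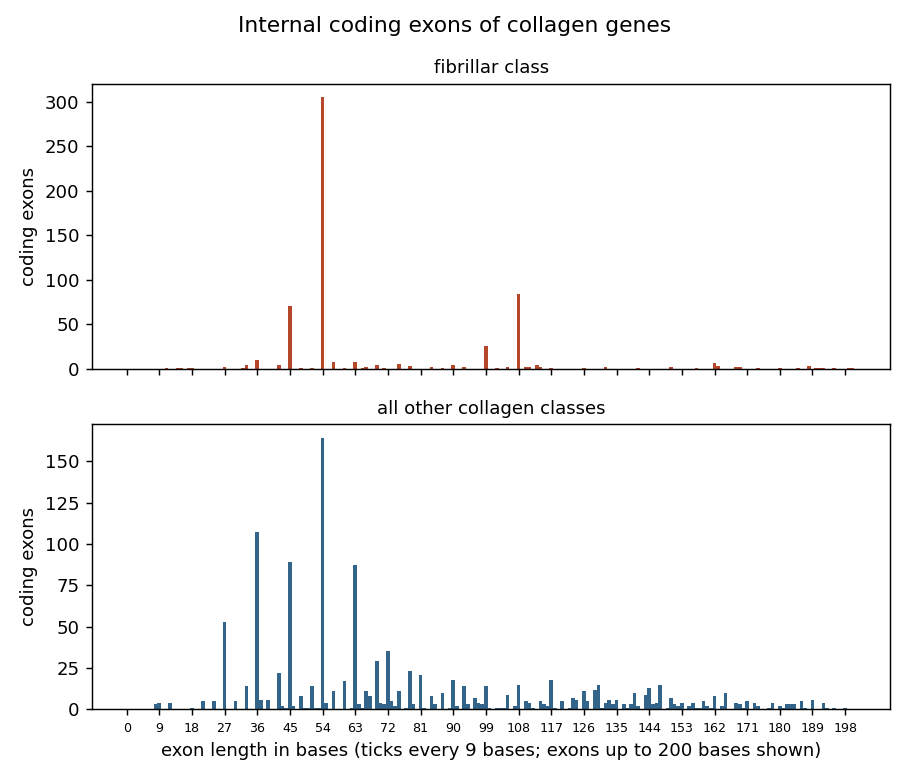
Number of internal coding exons (vertical axis) by exon length in bases (horizontal axis, ticks every 9 bases, exons up to 200 bases), for fibrillar collagen genes (upper panel) and all other collagen classes (lower panel), from GENCODE vM21. The fibrillar exons are concentrated at 54 bases (305 exons), with smaller peaks at 45, 99 and 108 bases, and the other classes are spread over more multiples of 9.

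The ends of the transcripts share another feature. The miR-29 family consists of microRNAs known to target collagen transcripts. Its mature sequences from RefSeq (GRCm38.p6) are printed with the seed, bases 2 to 8, in capitals, and all 3 have the same seed.
mmu-miR-29b-3p: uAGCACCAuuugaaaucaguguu
mmu-miR-29c-3p: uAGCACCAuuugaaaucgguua
mmu-miR-29a-3p: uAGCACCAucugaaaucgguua
The complement of that seed, TGGTGCT, was searched on the gene's strand in the longest 3′ UTR annotated for each gene. It was present in 13 of the 17 members that averaged 1 FPKM or more (76.5%), in 25 of all 44 members (56.8%) and in 14.8% of 9969 other genes at that level. The density was 1.07 matches per kilobase of 3′ UTR in those 17 members and 0.111 in the other genes, while the median 3′ UTR was 971 bases in the former and 1108 bases in the latter. Matches in 6 of the members are shown as examples, with TGGTGCT in capitals. Those shown are each followed by the base a, whereas no match in Col4a2, Col27a1 or Col16a1 is.
Col1a1, chr11:94952523-94952545, plus strand: gtgggaaggaatttcTGGTGCTa
Col3a1, chr1:45348967-45348989, plus strand: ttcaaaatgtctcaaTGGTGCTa
Col5a2, chr1:45374965-45374987, minus strand: cttttcttttaatgaTGGTGCTa
Col4a1, chr8:11199761-11199783, minus strand: gccaccgtcacaacaTGGTGCTa
Col15a1, chr4:47312485-47312507, plus strand: atccaatccacatatTGGTGCTa
Col6a2, chr10:76598750-76598772, minus strand: gagcacaaatgggggTGGTGCTa
The 4 members at that level with no match were Col18a1, Col1a2, Col14a1 and Col6a1. The match of Col1a1 lies past the end of the deposited span of that gene. A match is a sequence description, and the levels of miR-29 were not measured by this assay.

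The depth of the libraries could be estimated only roughly. About 19.5, 19.2, 18.9 and 17.7 M fragments (M, mega) were estimated for livers 1 to 4 from the smallest values of genes with a single transcript. Only products of value and transcript length, less 200 bases, from 25 to 75 were used. That window limits how far the estimates can differ, so they do not show that the depths were similar. The summed FPKM ranged from 516816 to 570681. Livers 1 and 2 shared 1 identical value above 0 and the other pairs of livers shared 0, so no library was a copy of another. Liver 2 stood apart in the acute-phase gene Saa1, at 2135 FPKM against 139, 45.6 and 131 FPKM in livers 1, 3 and 4. Of 6 hepatocyte markers, Ttr, Apoa1, Cps1, Tat and Hnf4a were present in every liver, and Alb, which hepatocytes transcribe at very high levels, was listed at 0 in all 4. A value of 0 in this table can therefore be a failed estimate.

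Of the 44 collagen genes, 17 averaged 1 FPKM or more. They comprised 7 of 11 fibrillar genes, 3 of 6 basement membrane genes, 3 of 6 beaded filament genes, 2 of 9 fibril-associated genes and both multiplexins. None of the 4 transmembrane, 3 short-chain, 1 anchoring fibril and 2 other genes reached that level. Col4a5 lay just above the minimum with a mean of 1.11 FPKM and Col13a1 just below it with 0.747 FPKM. The estimated number of fragments behind a value ran from 113 to 20174 for the 17 genes and from 0 to 109 for the other 27. These numbers rest on the rough estimates of depth. In bulk liver RNA, fewer cells of a type and less RNA per cell cannot be told apart.

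**Figure D2:**
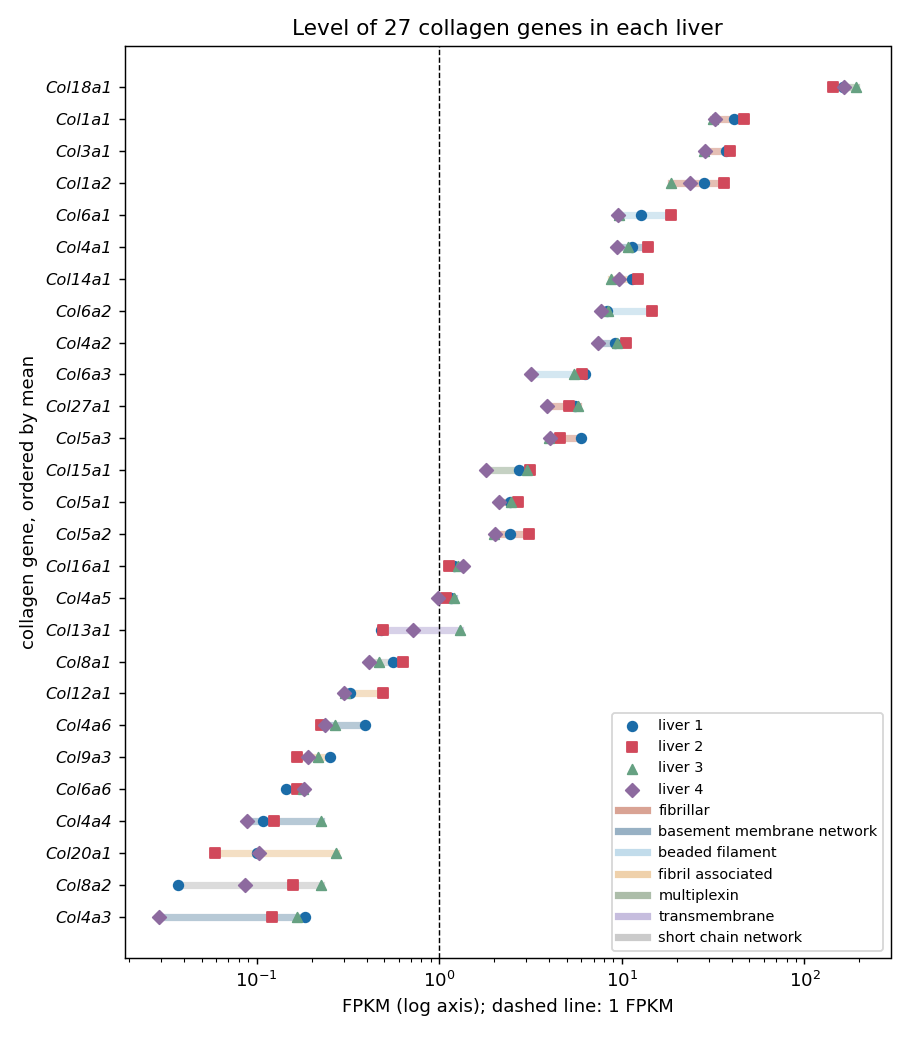
Level of the 27 collagen genes averaging 0.1 FPKM or more in each liver (horizontal axis, FPKM, log scale), ordered by mean. Each symbol is 1 liver, the bar spans lowest to highest and is coloured by class, and the dashed line is 1 FPKM. Col18a1 lies apart at 143 to 191 FPKM, above Col1a1, Col3a1 and Col1a2, and liver 2 (square) is the highest for most genes above the dashed line.

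Col18a1 (chr10:77052179-77166530), which codes for the precursor of the angiogenesis inhibitor endostatin, had the highest level of any collagen gene. It measured 163, 143, 191 and 164 FPKM in livers 1 to 4, a mean of 165 ± 19.6 FPKM (SD, n = 4). Its lowest value, in liver 2, was above the highest value of every other collagen gene. The gene made up 48.2 ± 7.08% (SD, n = 4) of the summed collagen FPKM. The other multiplexin, Col15a1, whose product is found in basement membranes of vessels and muscle, had 2.73, 3.13, 3.04 and 1.81 FPKM. The ratio of Col15a1 to Col18a1 was between 0.0111 and 0.0219. RefSeq lists a promoter for each of 2 transcription starts of Col18a1, shown from 250 bases before to 50 bases after the start.
Col18a1 inner start, chr10:77113656-77113955, minus strand: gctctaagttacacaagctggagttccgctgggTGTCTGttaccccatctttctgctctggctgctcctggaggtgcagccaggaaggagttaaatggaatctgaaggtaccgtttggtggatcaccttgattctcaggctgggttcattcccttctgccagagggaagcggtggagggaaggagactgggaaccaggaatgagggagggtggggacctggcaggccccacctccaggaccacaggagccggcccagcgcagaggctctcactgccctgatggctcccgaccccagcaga
Col18a1 outer start, chr10:77166481-77166780, minus strand: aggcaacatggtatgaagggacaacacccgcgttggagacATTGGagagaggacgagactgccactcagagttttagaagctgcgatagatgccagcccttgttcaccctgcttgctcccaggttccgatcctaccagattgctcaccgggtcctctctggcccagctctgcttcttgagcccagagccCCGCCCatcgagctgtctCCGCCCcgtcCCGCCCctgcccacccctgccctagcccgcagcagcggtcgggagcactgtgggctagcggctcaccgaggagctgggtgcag
Capitals in this and the other promoters mark matches, on either strand, to 4 motifs. These were CCAAT itself, the GC box core written GGGCGG, the TATA box in the form TATAAA and the Smad motif in the form CAGACA. The inner promoter held the Smad motif alone, and the outer promoter held CCAAT and 3 GC boxes. An FPKM per gene does not tell which start was used.

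The type I and III chains, which build the main fibres of liver scar, followed Col18a1. Col1a1 (chr11:94936270-94951856), the α1 chain of type I, had 41.0, 46.9, 31.7 and 32.5 FPKM in livers 1 to 4, a mean of 38.0 ± 7.23 FPKM (SD, n = 4). Col3a1 (chr1:45311538-45349706), the sole chain of type III, had 37.2, 39.1, 28.3 and 28.5 FPKM, a mean of 33.3 ± 5.67 FPKM (SD, n = 4). Both genes, and Col1a2 as well, were higher in livers 1 and 2 than in livers 3 and 4. These pairs of livers were chosen after the values were seen, and the share over all genes was not computed. Col1a2 (chr6:4505697-4541543), the α2 chain of type I, had 28.3, 36.4, 18.6 and 23.7 FPKM, a mean of 26.8 ± 7.57 FPKM (SD, n = 4). These 3 genes made up 86.9 ± 1.70% (SD, n = 4) of the fibrillar FPKM.

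The type V and XXVII chains are minor fibrillar collagens, and type V is known to start the assembly of type I fibrils. Col5a1 had 2.44, 2.71, 2.47 and 2.12 FPKM in livers 1 to 4. Col5a2 had 2.45, 3.08, 1.99 and 2.01 FPKM. Both were highest in liver 2, as the type I and III chains were. Col5a3 had 5.98, 4.58, 3.98 and 4.03 FPKM, highest in liver 1, and was above the other type V chains in every liver. Col27a1, a fibrillar collagen with a shorter helix than type I, had 5.57, 5.14, 5.74 and 3.92 FPKM. The other fibrillar genes, Col2a1, Col11a1, Col11a2 and Col24a1, are known from cartilage and bone, and none exceeded 0.0734 FPKM in any liver.

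Among basement membrane genes, Col4a1 (chr8:11198423-11312826) and Col4a2 (chr8:11312829-11449287) code for the chains of the widespread type IV trimer. Col4a1 had 11.4, 13.9, 10.8 and 9.41 FPKM in livers 1 to 4. Col4a2 had 9.15, 10.6, 9.39 and 7.37 FPKM. Both were highest in liver 2 and lowest in liver 4. Col4a5 had 1.16, 1.10, 1.20 and 0.988 FPKM, and its neighbour Col4a6 had 0.392, 0.226, 0.270 and 0.238 FPKM. Col4a3 and Col4a4 are known for the basement membrane of the kidney glomerulus. Col4a3 had 0.185, 0.121, 0.166 and 0.0294 FPKM, and Col4a4 had 0.109, 0.124, 0.226 and 0.0882 FPKM, both lowest in liver 4.

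The beaded filament genes of type VI, with Col1a2, had the 4 largest spreads between livers among the 17 genes. Col6a1 (chr10:76708792-76726044), the α1 chain, had 12.8, 18.6, 9.60 and 9.55 FPKM in livers 1 to 4. Col6a2 (chr10:76595756-76623404), the α2 chain, had 8.33, 14.7, 8.35 and 7.67 FPKM. For both, liver 2 was the highest, and for Col6a2 the other 3 livers lay close together. Col6a3, the long chain whose end is cleaved off as endotrophin, had 6.25, 6.02, 5.49 and 3.17 FPKM, so that liver 4 was low and livers 1 to 3 lay close together. On the scale of log2(FPKM + 1), the SD was 0.42 for Col6a1, 0.40 for Col6a2 and 0.37 for Col6a3, beside 0.39 for Col1a2. Of the chains that can replace it, Col6a6 had 0.145 to 0.182 FPKM, Col6a5 had 0.0120 to 0.158 FPKM and Col6a4 was listed at 0.

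Fibril-associated collagens sit on the surface of fibrils. Col14a1 had 11.4, 12.2, 8.74 and 9.67 FPKM in livers 1 to 4, a mean of 10.5 ± 1.58 FPKM (SD, n = 4). Like Col1a1, Col3a1, Col1a2 and several other members, among them Col4a1, Col5a2 and Col6a1, it was higher in livers 1 and 2 than in livers 3 and 4. Col16a1 had 1.21, 1.13, 1.27 and 1.35 FPKM, and its SD of 0.06 on the log2 scale was the smallest of the 17 genes. Col12a1, a relative of Col14a1, had 0.323, 0.493, 0.306 and 0.300 FPKM and was highest in liver 2.

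Of the genes below 1 FPKM, 10 averaged 0.1 FPKM or more, 11 were lower but above 0, and 6 were listed at 0 in every liver, namely Col9a1, Col19a1, Col2a1, Col11a1, Col26a1 and Col6a4. The transmembrane collagen Col13a1 had 0.479, 0.495, 1.29 and 0.719 FPKM, with its highest value in liver 3. The cartilage collagen Col9a3 had 0.167 to 0.252 FPKM over the livers, and the fibril-associated Col20a1 had 0.0591 to 0.272 FPKM. Of the genes that averaged less than 0.1 FPKM, Col28a1 reached 0.149 FPKM, Col9a2 0.113 FPKM, Col23a1 0.0716 FPKM, Col7a1, the anchoring fibril collagen of skin, 0.0634 FPKM, Col25a1 0.0491 FPKM, Col22a1 0.0298 FPKM and Col17a1 0.00901 FPKM in their highest liver. The short-chain collagens of type VIII were low: Col8a1 had 0.557, 0.632, 0.467 and 0.414 FPKM, and Col8a2 had 0.0369, 0.159, 0.225 and 0.0860 FPKM. Col10a1, a marker of cartilage about to turn into bone, had at most 0.0411 FPKM, although its deposited span of 114917 bases, against 7105 bases in RefSeq, also covers Nt5dc1 at 8.93 FPKM. Cartilage and muscle are the main sites of several of these collagens. Of 6 markers of these tissues, Acan and Myh1 were listed at 0 in all 4 livers, Comp, Acta1 and Ckm had means of 0.00596, 0.0568 and 0.0206 FPKM, and Sox5 had 2.25, 2.13, 2.21 and 1.48 FPKM in livers 1 to 4.

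In order of mean, 11 of the 16 neighbouring pairs among the 17 genes had overlapping ranges over the livers. The 5 pairs that did not overlap were Col18a1 and Col1a1, Col1a2 and Col6a1, Col4a2 and Col6a3, Col5a3 and Col15a1, and Col5a2 and Col16a1. The lowest Col1a2 value and the highest Col6a1 value were both 18.6 FPKM, so that gap was very small. The order of Col1a1, Col3a1 and Col1a2 overlapped in range, yet it was the same in each of the 4 livers.

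The summed collagen level was 354, 365, 346 and 315 FPKM in livers 1 to 4, a mean of 345 ± 21.6 FPKM (SD, n = 4). This corresponded to 0.0674, 0.0699, 0.0669 and 0.0551% of all FPKM. Without Col18a1 the sums were 190, 222, 155 and 151 FPKM, and the highest was 1.48 times the lowest, against 1.16 times with it. Col18a1 was lowest in liver 2 and highest in liver 3, the reverse of the fibrillar sum, which was 123, 138, 92.9 and 96.8 FPKM. The fibrillar share of the collagen sum accordingly ran from 26.9% in liver 3 to 37.8% in liver 2, a mean of 32.6 ± 4.75% (SD, n = 4). With Col18a1 left out it was 62.8 ± 2.15% (SD, n = 4).

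**Figure D3:**
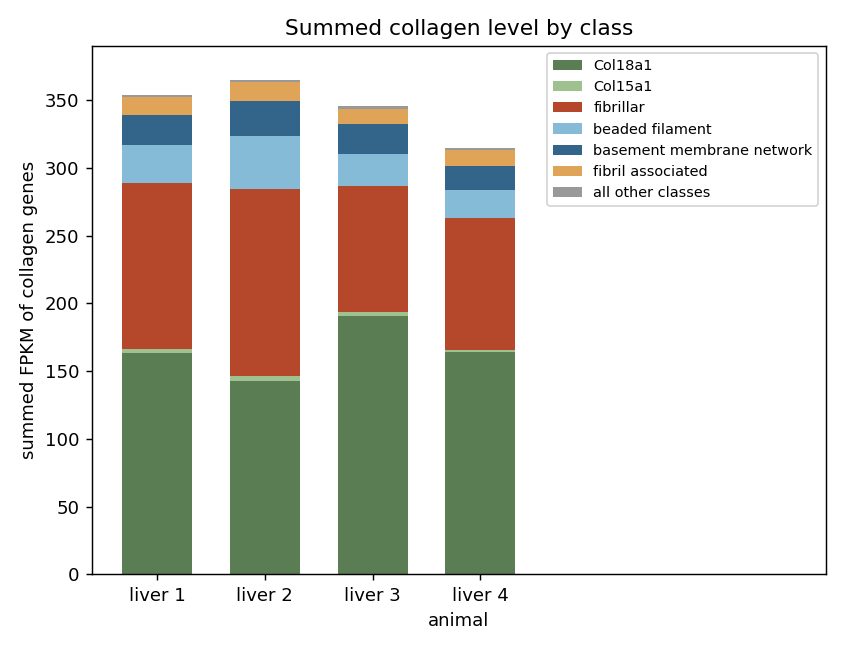
Summed FPKM of the collagen genes in each liver (vertical axis), stacked by class with Col18a1 and Col15a1 shown separately. Col18a1 is the largest block in every liver, and the fibrillar block is largest in liver 2 (138 FPKM) and smallest in liver 3 (92.9 FPKM).

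The collagen genes tended to be high and low in the same livers. Of the 17 genes, 11 (64.7%) were highest in liver 2, against 22.0% of the 10541 genes that averaged 1 FPKM or more. The 6 others were Col18a1, Col27a1 and Col4a5, highest in liver 3, Col6a3 and Col5a3, highest in liver 1, and Col16a1, highest in liver 4. Lowest values fell in liver 4 for 9 genes (52.9%, against 18.1% of all genes), in liver 3 for 6 (35.3%, against 31.4%) in liver 2 for 2, Col18a1 and Col16a1 (11.8%, against 29.9%), and in liver 1 for 0 (against 20.7%). Without liver 3 the number lowest in liver 4 was 15, against 25.1% of all genes. It was 13 with rescaling to equal sums (against 34.2%) and 13 with median-ratio scaling (against 24.6%). Of the 7 fibrillar genes, 5 were highest in liver 2 and 5 were lowest in liver 3. The median deviation from the mean of the gene, on the scale of log2(FPKM + 1), was 0.04, 0.21, -0.05 and -0.20 in livers 1 to 4, while over all 10541 genes it stayed between -0.02 and 0.04. The genes above their own mean numbered 14, 13, 8 and 1 of the 17 in livers 1 to 4, against 4971, 4758, 4956 and 6407 of the 10541 genes. The members share libraries and are partly made by the same cells, so these counts describe 4 livers and are not 17 independent observations.

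**Figure D4:**
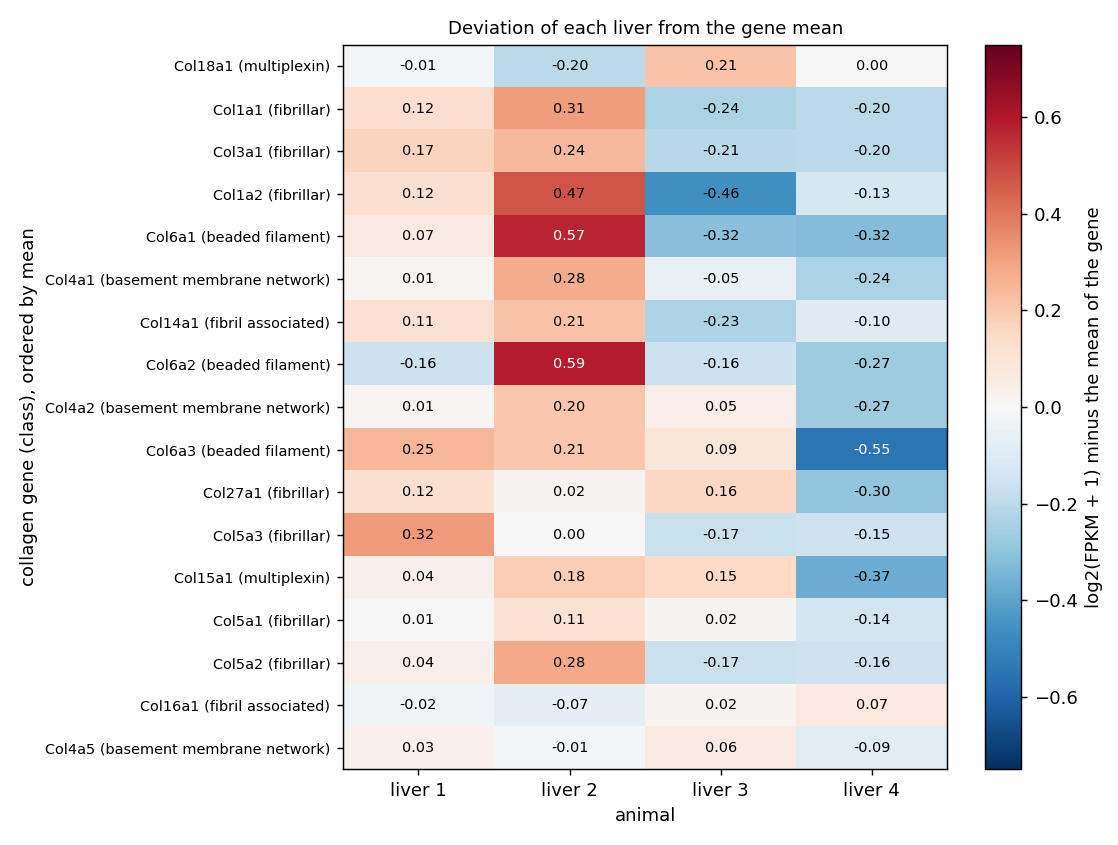
Deviation of each liver from the mean of the gene on the scale of log2(FPKM + 1), for the 17 collagen genes that averaged 1 FPKM or more, ordered by mean. Red is above and blue below the mean of the gene; livers 1 to 4 are above it for 14, 13, 8 and 1 genes (over all 10541 genes, 4971, 4758, 4956 and 6407), with the largest values at Col6a2 (0.59) and Col6a1 (0.57) in liver 2.

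The spread between livers was somewhat wider than that of most genes. The median SD of log2(FPKM + 1) was 0.21 over the 17 collagen genes and 0.16 over all 10541 genes. The SD of 14 of the 17 lay above the median of all genes, against 50.0% by construction. The highest liver was at least 1.5-fold above the lowest for 7 of the 17 (41.2%, against 28.4% of all genes), namely Col1a2, Col6a1, Col6a2, Col6a3, Col15a1, Col5a2 and Col5a3, with ratios from 1.5 to 1.97. A single liver stood apart from the other 3, by a gap that passed the critical value of Dixon's ratio on the log2 scale, for 1 of the 17, Col6a2, and for 5.46% of all genes. With median-ratio scaling of the livers it was 0 of the 17, against 5.41% of all genes. With no minimum level, the median SD was 0.082 for the collagen genes and 0.087 for all genes, the opposite order.

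Partner chains were compared as ratios within each liver, which do not depend on how a liver is scaled. For type I collagen, whose usual trimer holds more α1 than α2 chains, the ratio of Col1a1 to Col1a2 was 1.45, 1.29, 1.70 and 1.37 in livers 1 to 4. It was above 1 in 4 of 4 livers, with an SD of 0.17 on the log2 scale. The ratio of Col1a1 to Col3a1, which lie on different chromosomes and co-assemble in fibrils, was 1.10, 1.20, 1.12 and 1.14. Its SD of 0.05 on the log2 scale was the smallest of all 136 pairs among the 17 genes, whose median was 0.29. Pairs not examined as partners came next, at 0.06 for Col1a1 with Col5a2 and 0.07 for Col3a1 with Col14a1. Other partner pairs ranked 6 (Col4a1 with Col4a2), 8 (Col3a1 with Col5a2), 26 (Col1a1 with Col1a2) and 29 (Col6a1 with Col6a2). Lower still were Col5a1 with Col5a2 (40), Col15a1 with Col18a1 (112) and Col6a1 with Col6a3 (114). The ratio of the neighbouring genes Col3a1 and Col5a2, 24624 bases apart, was 15.2, 12.7, 14.2 and 14.1, with an SD of 0.11.

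The ratio of Col4a1 to Col4a2 was 1.24, 1.31, 1.15 and 1.28, above 1 in 4 of 4 livers, with an SD of 0.08 on the log2 scale. These genes are transcribed away from each other, and their deposited spans lie 2 bases apart. The promoter windows, taken from the RefSeq starts, share 78 bases.
Col4a1, chr8:11312777-11313076, minus strand: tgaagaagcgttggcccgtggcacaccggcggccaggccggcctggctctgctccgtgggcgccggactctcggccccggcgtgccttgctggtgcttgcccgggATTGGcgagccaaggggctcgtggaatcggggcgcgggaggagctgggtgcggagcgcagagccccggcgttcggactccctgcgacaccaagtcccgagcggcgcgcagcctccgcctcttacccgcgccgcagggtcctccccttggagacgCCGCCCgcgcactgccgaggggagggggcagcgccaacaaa
Col4a2, chr8:11312555-11312854, plus strand: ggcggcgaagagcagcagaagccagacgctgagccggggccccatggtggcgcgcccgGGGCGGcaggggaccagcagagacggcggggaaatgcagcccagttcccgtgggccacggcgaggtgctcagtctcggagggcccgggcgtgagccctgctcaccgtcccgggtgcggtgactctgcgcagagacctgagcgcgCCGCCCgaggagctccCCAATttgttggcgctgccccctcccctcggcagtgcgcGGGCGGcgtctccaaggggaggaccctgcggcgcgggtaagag
Each window held CCAAT and the GC box, and 1 GC box lay in the bases they share. Type VI was less even. The ratio of Col6a1 to Col6a2, which lie on the same strand of chromosome 10, was 1.54, 1.27, 1.15 and 1.25, with an SD of 0.18. The ratio of Col6a1 to Col6a3, on another chromosome, was 2.05, 3.09, 1.75 and 3.01, with an SD of 0.41. Livers 2 and 4 had the higher ratios, although Col6a1 itself was highest in liver 2 and lowest in liver 4. Col5a1 and Col5a2 were nearly equal, with ratios of 0.999, 0.877, 1.24 and 1.05 and an SD of 0.21. Of the pairs with few fragments for at least 1 partner, the SD was 0.98 for Col4a3 over Col4a4, 1.19 for Col8a1 over Col8a2 and 0.31 for Col4a5 over Col4a6. An exact sign-flip test over 4 livers cannot give a two-sided p below 0.125, so no ratio was tested.

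**Figure D5:**
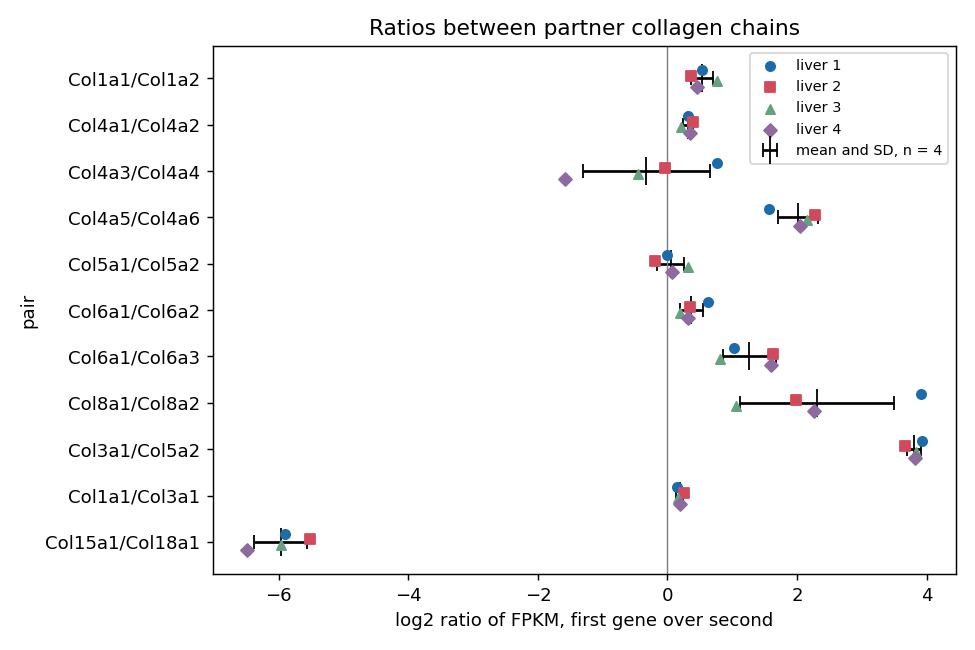
Log2 ratio of FPKM between partner chains (horizontal axis), first gene over second, in each liver (symbols), with the mean and SD (n = 4) as bars. The ratios of Col1a1 to Col3a1 and of Col4a1 to Col4a2 lie close together in all 4 livers, while those of Col4a3 to Col4a4 and of Col8a1 to Col8a2 are spread widely.

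RefSeq promoters were matched for 35 of the 44 members and 14 of the 17 genes above, all but Col1a1, Col14a1 and Col5a2. The promoters of Col1a2 and Col3a1 are printed because these fibrillar genes varied in the same direction over the livers, being highest in liver 2 and lowest in liver 3.
Col1a2, chr6:4505368-4505667, plus strand: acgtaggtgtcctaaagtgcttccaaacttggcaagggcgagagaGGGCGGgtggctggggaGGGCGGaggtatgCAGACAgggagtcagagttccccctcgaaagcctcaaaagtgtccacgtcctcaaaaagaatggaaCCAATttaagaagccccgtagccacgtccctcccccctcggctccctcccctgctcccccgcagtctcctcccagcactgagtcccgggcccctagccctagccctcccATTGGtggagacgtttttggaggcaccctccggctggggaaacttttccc
Col3a1, chr1:45311288-45311587, plus strand: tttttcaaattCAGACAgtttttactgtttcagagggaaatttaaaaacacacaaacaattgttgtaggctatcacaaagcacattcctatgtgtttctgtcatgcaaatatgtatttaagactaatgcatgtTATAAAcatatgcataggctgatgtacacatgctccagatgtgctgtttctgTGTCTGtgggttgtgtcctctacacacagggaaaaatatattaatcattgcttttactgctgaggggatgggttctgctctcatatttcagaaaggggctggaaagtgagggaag
The Col1a2 window held CCAAT, the GC box and the Smad motif. The Col3a1 window held the TATA box and the Smad motif, and neither CCAAT nor the GC box. Over the 16 promoters of the 14 genes, the GC box was found in 11, CCAAT in 7, the Smad motif in 4 and the TATA box in 1. Among all 32851 promoters of the same length, 35.7% held the GC box, 37.4% CCAAT, 21.0% the Smad motif and 13.6% the TATA box. The 32851 promoters were not limited to genes that averaged 1 FPKM or more and were not matched for GC content. All 4 motifs were searched on both strands, and none of them contains another.

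Collagen chains are hydroxylated, folded, exported, trimmed and cross-linked by dedicated enzymes, and are sensed by receptors. Of 51 listed genes of these steps, 33 averaged 1 FPKM or more. Of these 33, 14 were highest in liver 2 (22.0% of all genes were), 9 in liver 3 (26.8%), 5 in liver 1 (17.9%) and 5 in liver 4 (33.3%). Their median SD was 0.18 on the log2 scale. Of 15 genes for prolyl and lysyl modification, 11 were expressed at this level. P4hb, the shared subunit of prolyl 4-hydroxylase and a general disulfide isomerase, was the highest at 837 ± 90.2 FPKM (SD, n = 4), and P3h4, a partner of lysyl hydroxylation, the lowest at 1.01 ± 0.318 FPKM, with the largest SD of the list on the log2 scale (0.24). The catalytic subunits P4ha1 and P4ha2 had means of 2.77 ± 0.513 and 1.42 ± 0.331 FPKM, and both were highest in liver 2 and lowest in liver 3.

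All 9 genes for folding and export reached 1 FPKM. Serpinh1, which codes for the collagen chaperone HSP47, had 14.2, 15.3, 13.7 and 9.44 FPKM in livers 1 to 4, lowest in liver 4, and the largest SD of its list (0.29). Hspa5, a general chaperone, was the highest of that list at 213 ± 15.5 FPKM, and Fkbp10, a collagen prolyl isomerase, the lowest at 2.12 ± 0.626 FPKM (each SD, n = 4). The cargo receptors and coat proteins for large cargo, Mia3, Mia2, Sec23a and Sec24d, had means from 23.7 to 29.0 FPKM. Of 10 genes for propeptide removal, Bmp1, the C-proteinase, had 32.5 ± 2.73 FPKM, Pcolce, its enhancer, 7.42 ± 1.11 FPKM and Adamts2, an N-proteinase, 3.13 ± 0.433 FPKM (each SD, n = 4), and the other 7 were below 1 FPKM.

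Of 6 cross-linking genes, 4 reached 1 FPKM. The lysyl oxidase relative Loxl1 had 4.92, 5.60, 5.495 and 3.05 FPKM, lowest in liver 4, and the largest SD of all 33 genes (0.33). Lox itself had 0.449, 0.719, 0.286 and 0.227 FPKM. Tgm2, the tissue transglutaminase, had 42.0 ± 1.72 FPKM (SD, n = 4) with an SD of 0.06 on the log2 scale, so it was highest of the list and nearly level over the livers. Loxl3 was the lowest of those that reached the minimum, at 1.12 ± 0.231 FPKM (SD, n = 4). Of 11 receptor genes, 6 reached 1 FPKM, from Itgb1, the shared integrin subunit, at 44.7 ± 6.06 FPKM to Lair1, an inhibitory collagen receptor of leukocytes, at 1.23 ± 0.440 FPKM (each SD, n = 4). Lair1 had the largest SD of the receptors (0.29), with 0.872, 1.71, 0.834 and 1.49 FPKM.

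Markers of the cells that could carry these transcripts differed between the livers as well. The 8 markers of activated myofibroblasts summed to 42.7, 54.4, 38.4 and 30.3 FPKM in livers 1 to 4, and 7 of the 8 were highest in liver 2, against 22.0% of all genes. Of the markers that averaged 1 FPKM or more, 5 of 10 for stellate cells, 3 of 5 for portal fibroblasts, 4 of 6 for endothelial cells, 2 of 5 for macrophages, 1 of 4 for cholangiocytes, 1 of 1 for mesothelium and 0 of 5 for hepatocytes were highest there. The 10 stellate cell markers summed to 102, 115, 96.6 and 96.7 FPKM and the 7 portal fibroblast markers to 65.8, 78.1, 68.2 and 58.8 FPKM. The 4 mesothelial markers, of cells on the liver surface, summed to 3.44, 6.81, 3.51 and 2.09 FPKM. The 7 endothelial markers summed to 42.6, 55.6, 47.3 and 53.8 FPKM, the 5 cholangiocyte markers to 19.3, 22.2, 20.5 and 17.7 FPKM, and the 5 macrophage markers to 146, 190, 147 and 197 FPKM. Liver 2 had the highest sum for each of these 7 lists except the macrophage markers. Some of these sums rest largely on 1 gene. Gas6 had a mean of 43.0 FPKM in a portal fibroblast sum with a mean of 67.7 FPKM. Lum made up 22.4 of 41.5 FPKM for activated myofibroblasts, Clec4g 29.3 of 49.8 FPKM for endothelial cells and Lyz2 114 of 170 FPKM for macrophages. The 6 hepatocyte markers, Alb at 0 among them, summed to 19362, 18023, 18157 and 22885 FPKM, highest in liver 4. The part of these cell markers, and of the Saa1 level of liver 2, in the differences of collagen levels was not tested.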

How the data were processed

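Bulk RNA sequencing was done on 4 livers of 1 group. Per the labels' protocols, liver RNA was purified with a kit and a sequencing company prepared poly(A)-selected libraries. The submitters' processing notes name FastQC 0.10.1, Trim Galore 0.6.3, cutadapt, STAR 2.7.6a and Cufflinks 2.2.1 and the build mm10, with no settings. The annotation is not given in the sources used here. The authors deposited 1 value per gene and liver, and the header names no unit. The values the authors made were taken as FPKM because Cufflinks, which writes FPKM, is in the submitters' processing notes and because they are not whole and their sums differ between livers. Which step used which tool is not given there. The depth is known only approximately and was estimated from genes with 1 transcript over 800 bases, in which the smallest values mark 1 fragment. The median was taken over products of value and length, less 200 bases, from 25 to 75, which limits how far the estimates can differ. Columns were matched through the sample descriptions, and 0 value columns were unmatched. Deposited starts were raised by 1 to give 1-based positions.

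Levels, sums, ratios and SDs were computed with Python 3.11.15, numpy 2.4.6 and pandas 2.3.3, on FPKM or on log2(FPKM + 1). On that scale differences of scarce genes are understated. Counts over genes used a minimum mean of 1 FPKM. The gap ratio is Dixon's, with its 95% critical value for 4 samples. The gap ratio and the SD were tested on simulated data, and the other steps were not. No test between groups exists with 1 group. The SDs cover the spread between these 4 samples, and the labels do not say whether each liver is from a separate mouse. Named genes were every collagen gene, with values per liver for a mean of at least 1 FPKM and for partner chains, and ranges or highest values for the rest. Of the pathway lists, the highest, the lowest and the most variable genes were named, with the enzymes needed to explain a step. Of the cell marker lists, sums and genes at or near 0 were named, with some genes that made up much of a sum. Values per liver beyond that rule, such as those of Col12a1, Col13a1, Sox5 and Saa1, were chosen after their values were seen. The collagen genes, the lists and liver 2 were chosen with earlier results of these data known, and the exon and miR-29 features after the files were read. Protein sequences were not used here. Alternatives changed the minimum, the pseudocount, the scaling and the livers used.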

Additional observations from a re-analysis of the deposited data

Results flagged for a closer look

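The gap ratio was examined for the collagen genes, for sums and ratios, and for the pathway and marker genes that averaged 1 FPKM or more. Scarcer genes of those lists were left out. The 6 collagen genes listed at 0 in every liver give no ratio, so they could not be flagged. In 9 of the 175 series of 4 values, a total that counts those 6 genes, 1 liver lay far from the other 3 by this ratio. Chance alone gives about 1 in 20 of the series that have a ratio. The 3 collagen genes were Col6a2, with 14.7 FPKM in liver 2 against 7.67 to 8.35 FPKM in the others, Col12a1, with 0.493 FPKM in liver 2 against 0.300 to 0.323 FPKM, and Col17a1, with 0.00901 FPKM in liver 3 and 0 in the others, a value worth about 1 fragment. Of the genes for export, Mia2 had 25.8 FPKM in liver 4 against 22.7 to 23.2 FPKM, and Sec23a had 30.8 FPKM in liver 4 against 28.2 to 28.6 FPKM. The collagen receptor Ddr1 had 4.88 FPKM in liver 3 against 3.40 to 3.61 FPKM. Of the cell markers, Sox9 had 3.37 FPKM in liver 4 against 4.88 to 5.22 FPKM, Sox5 had 1.48 FPKM in liver 4 against 2.13 to 2.25 FPKM, and Apoa1 had 15343 FPKM in liver 4 against 11921.9 to 12319.9 FPKM.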

How the results depend on the processing

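No paired analysis was possible because there was only 1 group. The number of collagen genes at the minimum was 27 with a minimum of 0.1 FPKM and 11 with 5 FPKM. With no minimum the median SD was 0.082 (log2 scale), below the 0.087 of all genes, and it stayed above the value of all genes under the 10 other alternatives. The summed collagen level was 648 after rescaling each liver to a sum of 1 M and, in an alternative chosen after seeing the data, 179 FPKM without Col18a1, where the fibrillar share became 62.8%. The collagen share was 0.113% without the 100 most abundant genes. The number of genes with 1 liver apart was 0 with median-ratio scaling (5.41% of all genes) and 2 of 27 with a minimum of 0.1 FPKM (5.73%). The number highest in liver 2 was 11 with rescaling to equal sums (28.9% of all genes), 11 with median-ratio scaling (26.6%) and 11 to 13 when another liver was left out (27.3 to 34.2%). The number lowest in liver 4 was examined after seeing the data. It was 9 without liver 1 (22.8% of all genes), 9 without liver 2 (27.0%) and 15 without liver 3 (25.1%). With rescaling to equal sums it was 13 (34.2%), and with median-ratio scaling 13 (24.6%). With a minimum of 5 FPKM, the expressed genes numbered 6 for modification, 1 for cross-linking and 1 for receptors, and with 0.1 FPKM, 5 for propeptide removal. With another pseudocount, 15 of 22 partner ratios moved by less than 1 SD and 0 changed sign. Without 1 liver the log2 ratio changed sign in 2 of 44, Col4a3 over Col4a4 without liver 4 (0.09) and Col5a1 over Col5a2 without liver 3 (-0.04). At about 1 fragment per value, the lowest genes cannot be ranked.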
